A study of Mus musculus with 8 samples.

Results

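The hair follicle stem cell identity genes described here are Sox9, Lhx2, Tbx1, Nfatc1, Foxc1, Lrig1, Cd34 and Krt15, which are factors and markers of the bulge and the isthmus of the follicle. They were taken by gene name from the 18770 genes of the deposited expression table. All 8 were in the table, and all 8 were among the 15964 genes with enough signal to be tested. The bulge is a stem cell compartment in the outer root sheath at the base of the permanent follicle, and the isthmus lies above it, below the opening of the sebaceous gland. Bulge cells are mostly quiescent between growth phases, and together with the cells of the hair germ they rebuild the lower follicle when a growth phase (anagen) begins. Removing the hair of resting skin starts such a growth phase.

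The skin came from the back of C57BL/6 wildtype mice aged 7 to 8 weeks, which were depilated and then treated topically every day with alpinetin (AP), a plant flavonoid, or with vehicle (VC). The mice were male, according to the study's methods. The dose of AP was 20 µl at 3 mg/ml, dissolved in 65% ethanol, and the vehicle was the same volume of 65% ethanol alone. At day 4 after depilation the dermis with its hair follicles was taken, once the epidermis between the follicles had been removed, and its RNA was sequenced for 4 mice per group. The question addressed here is whether the genes that define follicle stem cells differed between AP and VC skin at that time. The libraries carry the names VC.1, VC.2, VC.3, VC.4, AP.1, AP.2, AP.3 and AP.4, and values of single libraries are given in this order. The labels number the mice differently, so that no library was tied to a particular mouse.

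The deposited values are read counts per gene divided by a size factor for each library, called normalized counts below. The total over all listed genes was 6454563 to 7264151 reads for a VC library and 8507783 to 11190113 reads for an AP library. The 13 mitochondrially encoded genes took 54.3%, 44.9%, 42.1% and 52.3% of these reads across the VC libraries, and 11.1%, 7.85%, 5.32% and 10.3% across the AP libraries. Every VC library thus held a larger mitochondrial share than every AP library (p = 0.0286 in a two-sided exact permutation test, which cannot give a smaller p with 4 libraries in each group). The other genes had 3080758 to 3762217 reads per VC library and 7561598 to 10594787 per AP library. With the reads of each library drawn down to the smallest of these totals, the log2 fold change (AP over VC) of Lrig1 was 1.18 (limma adjusted p = 0.00853) and that of Tbx1 was -0.70 (limma adjusted p = 0.0678). With the mitochondrial genes left out and the other reads scaled to their total, Lrig1 was at 1.17 (limma adjusted p = 0.0137) and Tbx1 at -0.70 (limma adjusted p = 0.0880). Both fits gave 1 member that passed the test, as the main fit below did. Of all genes tested, 10% of 15232 passed with reads drawn down and 9.15% of 15989 with mitochondrial genes left out. Fewer genes were detected in every VC library (15172 to 17417) than in every AP library (17745 to 18049, p = 0.0286 in the same permutation test). VC.1 had the fewest. Whether this, or anything else that differs along with the mitochondrial share, has a part in the results below was not tested. A floor of 3 reads corresponded to 4.10 to 5.63 normalized counts in the VC libraries and to 1.49 to 2.18 in the AP libraries, and every member lay above it in every library. Such floors describe counting error alone, because the reads carry no molecular identifiers and cannot be counted as separate molecules.

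Of the 8 identity genes, Lrig1 was higher in AP skin, and the other 7 did not pass the test at an adjusted p under 0.05. Lrig1 rose 2.18-fold, with no overlap between the groups. Tbx1 had the largest difference in the other direction, with 1.67 times as much in VC as in AP skin on the fitted scale, and missed the threshold with an adjusted p of 0.0530 in limma. For Sox9, Lhx2, Nfatc1, Foxc1, Cd34 and Krt15 the libraries of the groups overlapped, and the log2 fold changes (AP over VC, here and throughout) lay between -0.25 and 0.41. All fold changes are on the scale of log2(normalized count + 1). In bulk tissue of this kind, fewer cells of a type and less RNA per cell cannot be told apart.

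At an adjusted p under 0.05 in limma, 1 of the 8 members was higher in AP skin and 0 were lower, where 6.33% of all genes tested were higher and 4.0% were lower. At an unadjusted p under 0.05 in limma, and at an adjusted p under 0.05 with edgeR, DESeq2 or limma-voom, 1 was higher (Lrig1) and 1 was lower (Tbx1). Of all genes tested, 17% were higher and 13.3% were lower at the unadjusted p, 6.28% and 4.46% with edgeR, 10.5% and 8.55% of 15921 genes with an adjusted p from DESeq2, and 4.48% and 4.53% with limma-voom. With the cutoffs of the study's methods (p under 0.01 before adjustment, fold change above 1.5) applied to the limma fit, 1 member was higher (Lrig1) and 1 was lower (Tbx1), where 8.26% of all genes were higher and 5.32% were lower. The study applied its cutoffs to a different test, DESeq2. The groups had separate ranges for 1 member, which was higher in AP skin, where 10.3% of all genes were higher and 8.91% were lower without overlap. A count of 1 in 8 is too small to set the members apart from these shares. The median log2 fold change of the members was 0.27, that of all genes tested was 0.06, and the median standard error of a gene was 0.29. With VC.4 left out, the median of the members was 0.02, and 2 members passed the threshold, as did 7.59% of all genes. The number of all genes called moved much more with the libraries used. From 1011 higher and 639 lower genes it went to 584 and 255 without VC.1, to 385 and 155 without AP.2, to 211 and 96 without AP.3 and to 257 and 147 without AP.4. Of the called genes, the share that was higher was 61.3%, and it was 49.9% with upper-quartile factors and 99.3% when libraries were scaled by total counts, mitochondrial reads included. That last scaling moved the median over all genes tested by 0.84 on the log2 scale. Relative to the shifted median, Lrig1 was at 1.09, Tbx1 at -0.77 and Lhx2 at -0.28, and before subtraction no member was below 0, with Lhx2 at 0.62 and Tbx1 at 0.13.

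**Figure D1:**
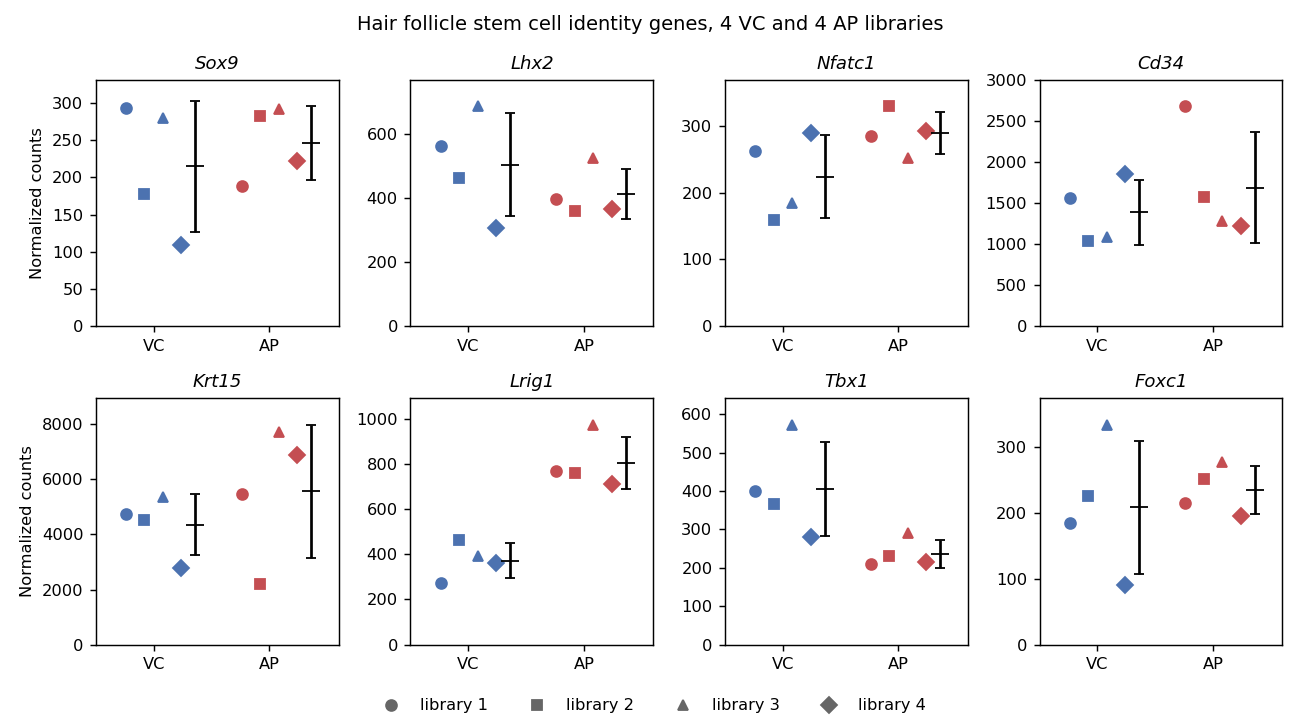
Normalized counts of the 8 identity genes in each of the 4 VC (blue) and 4 AP (red) libraries, with the group mean and SD as black bars and a separate vertical axis from 0 for each gene. The 4 AP libraries lie above all VC libraries for Lrig1, and 3 of 4 AP libraries lie below all VC libraries for Tbx1.

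Sox9 (ENSMUSG00000000567, chr11:112782224-112787760, plus strand, mm10) encodes the SRY-box factor needed to set up and maintain the bulge. It had 293, 177, 279.9 and 109 normalized counts across the VC libraries and 189, 283, 292 and 222 across the AP libraries. VC.1 held the highest value and VC.4 the lowest of all 8 libraries, so that the AP values lay entirely inside the VC range. The means were 215 ± 87.5 (SD, n = 4) in VC and 247 ± 49.5 (SD, n = 4) in AP skin, with a log2 fold change of 0.28 (SE 0.30, limma adjusted p = 0.560). Without VC.4 this value was -0.01.

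Lhx2 (ENSMUSG00000000247, chr2:38339281-38369733, plus strand), a LIM-homeodomain factor that maintains bulge cells in their undifferentiated state, had 562, 461, 687 and 308 normalized counts across the VC libraries. Across the AP libraries it had 396, 358, 526 and 365. AP.3 was the highest AP library and lay between VC.2 and VC.1, and VC.4 was below every AP library. With 504 ± 160.5 (SD, n = 4) in VC and 411 ± 78.1 (SD, n = 4) in AP skin, the log2 fold change was -0.25 (SE 0.24, limma adjusted p = 0.504). It was -0.47 without VC.4 and -0.08 without VC.3. When libraries were scaled by total counts it was 0.62, or -0.28 relative to the shifted median of all genes.

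Tbx1 (ENSMUSG00000009097, chr16:18580979-18590671, minus strand) encodes a T-box factor that supports the self-renewal of bulge stem cells over repeated hair cycles. It had 400.2, 366, 573 and 281 normalized counts across the VC libraries and 211, 229.7, 290.5 and 215 across the AP libraries. AP.1, AP.2 and AP.4 lay below every VC library, and AP.3 overlapped the VC group only through VC.4. These values rest on 150 to 420 reads per VC library and 291 to 583 per AP library. The mean was 405 ± 123 (SD, n = 4) in VC and 236 ± 36.9 (SD, n = 4) in AP skin. The log2 fold change was -0.74 (SE 0.22, 95% interval -1.22 to -0.26), with an unadjusted p of 0.00593 and an adjusted p of 0.0530 in limma. In limma the gene thus met the unadjusted cutoffs given above and missed the adjusted threshold by a small margin. The adjusted p was under 0.05 in 7 of 22 alternative fits, among them DESeq2 (0.0156) and edgeR (0.0446) on the recovered reads and limma without VC.4 (0.0332). Over the 22 alternatives it lay between 0.0156 and 0.720, the last with total-count scaling, where the log2 fold change was 0.13, or -0.77 relative to the shifted median of all genes.

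Nfatc1 (ENSMUSG00000033016, on chromosome 18), a calcium-regulated factor that holds bulge cells in quiescence, had 264, 159.6, 184 and 291 normalized counts across the VC libraries. It had 286, 331, 253 and 293 across the AP libraries. VC.2 and VC.3 were below every AP library, VC.1 and VC.4 lay within the AP range, and 2 of 4 AP libraries were above every VC library. The means were 225 ± 62.6 (SD, n = 4) and 290.4 ± 32.0 (SD, n = 4), and the log2 fold change of 0.41 had a 95% interval from -0.06 to 0.88 (limma adjusted p = 0.224). Once the trend of log2 values on exon length had been removed it was 0.16.

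Foxc1 (ENSMUSG00000050295, chr13:31806633-31812476, plus strand) encodes a forkhead factor that is switched on in activated bulge cells and returns them to quiescence. It had 184, 225, 333 and 90.0 normalized counts across the VC libraries and 215, 250.2, 276 and 195 across the AP libraries. The VC libraries spread more widely than the AP libraries, which all lay between VC.1 and VC.3. The VC.4 value rests on 48 reads, the fewest for any member in any library. The log2 fold change was 0.30 (SE 0.33, limma adjusted p = 0.566), and it was -0.05 without VC.4 and 0.16 with the exon length trend removed.

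Lrig1 (ENSMUSG00000030029, chr6:94604529-94700158, minus strand) encodes a transmembrane protein that lowers signalling by epidermal growth factor receptors and marks stem cells of the isthmus and junctional zone. It had 273, 464, 391 and 362 normalized counts across the VC libraries, and 769.5, 762, 975 and 714 across the AP libraries. The lowest AP library stood well above the highest VC library, and AP.3 was the highest of all. Between 150 and 314 reads per VC library and 998 to 1957 per AP library stood behind these values. The mean was 372 ± 79.0 (SD, n = 4) in VC and 805 ± 116 (SD, n = 4) in AP skin. The log2 fold change was 1.13 (SE 0.18, 95% interval 0.72 to 1.53, limma adjusted p = 0.00896), which is 2.18-fold with an interval from 1.65 to 2.89. The adjusted p stayed under 0.05 in all 22 alternative fits, with a highest value of 0.0363, and leaving out 1 library at a time gave log2 fold changes from 0.99 to 1.24. Read by eye, Lrig1 is also among the genes labelled in a figure that the study drew from these libraries, although its text does not name the gene. The selection of Lrig1 is thus not independent of these libraries. Of its exon bases, 144 (2.58%) are shared with Slc25a26 on the opposite strand. Whether strand was used in counting is not given in the sources used here, and reads of the shared bases cannot then be told apart. Slc25a26 itself had 87.2 to 131 normalized counts in the VC libraries and 57.2 to 82.2 in the AP libraries.

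Cd34 (ENSMUSG00000016494, chr1:194938819-194961279, plus strand), a cell surface sialomucin used to sort mouse bulge cells, is also made by endothelial cells and many dermal fibroblasts. It had 1569.85, 1040.35, 1088 and 1856 normalized counts across the VC libraries and 2686, 1577, 1284 and 1216 across the AP libraries. AP.1 was far above the other libraries, and the remaining AP libraries lay inside the VC range. The means were 1389 ± 393 (SD, n = 4) in VC and 1691 ± 682 (SD, n = 4) in AP skin, with a log2 fold change of 0.25 (SE 0.27, limma adjusted p = 0.560). Without AP.1 the log2 fold change was 0.00, and with the exon length trend removed it was 0.01. Within each group the libraries had the same order for Cd34 as for the summed fibroblast markers given below. Of the exon bases of Cd34, 148 (2.03%) overlap the antisense gene Gm16897, with the same limit as for Lrig1.

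Krt15 (ENSMUSG00000054146, chr11:100131758-100135928, minus strand) encodes a type I keratin of bulge cells that basal keratinocytes also make. It had 4760.5, 4510.15, 5355 and 2779 normalized counts across the VC libraries and 5466, 2211, 7711 and 6894 across the AP libraries. AP.1, AP.3 and AP.4 were above every VC library, whereas AP.2 was below every VC library. The log2 fold change was 0.25 (SE 0.36, limma adjusted p = 0.675), and without AP.2 it was 0.65 with an adjusted p of 0.164. It was 0.05 without VC.4, 0.05 without AP.3, 0.10 without AP.4 and 0.43 with the exon length trend removed. As a share of the basal keratin Krt14 in the same library, Krt15 stood at 50.2%, 11.4%, 25.5% and 28.0% across the VC libraries and at 28.2%, 8.90%, 18.1% and 10.6% across the AP libraries. The ratio differed several-fold among VC libraries, and the groups overlapped.

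Per kilobase of exon, the members spanned a wide range of levels. In VC skin, Krt15 stood at 2462 ± 626 (SD, n = 4) normalized counts per kilobase and Cd34 at 190.5 ± 53.9 (SD, n = 4). They were followed by Tbx1 at 115 ± 34.9, Lhx2 at 115 ± 36.5, Lrig1 at 66.7 ± 14.2, Sox9 at 51.9 ± 21.2, Foxc1 at 35.6 ± 17.2 and Nfatc1 at 30.1 ± 8.38 normalized counts per kilobase (SD, n = 4). Only Krt15 and Cd34 were separate neighbours in this order, and the ranges of every other pair of neighbours overlapped. In AP skin the order on the same scale was Krt15 at 3153 ± 1372, Cd34 at 232 ± 93.6, Lrig1 at 144 ± 20.8, Lhx2 at 93.6 ± 17.8, Tbx1 at 67.2 ± 10.5, Sox9 at 59.6 ± 12.0, Foxc1 at 40.0 ± 6.17 and Nfatc1 at 38.9 ± 4.28 (SD, n = 4). There Lrig1 had passed Lhx2 and Tbx1, and the ranges of Lrig1 and Lhx2, like those of Krt15 and Cd34, did not overlap.

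Lrig1 and Tbx1 were also compared within each library, on a scale that no library scaling changes. Among the summed length-corrected level of the members other than Krt15, Lrig1 made up 7.59%, 15.5%, 10.2% and 11.8% across the VC libraries and 17.7%, 20.8%, 24.8% and 22.6% across the AP libraries. Tbx1 made up 17.7%, 19.4%, 23.7% and 14.5% across the VC libraries and 7.72%, 9.97%, 11.7% and 10.8% across the AP libraries. The shares of Lrig1 were higher and those of Tbx1 lower in every AP library than in every VC library. Both are parts of the same sum, so a higher share of Lrig1 by itself lowers that of Tbx1. With Krt15 included in the sum both overlapped, since Lrig1 was at 2.86% in AP.4 and 3.05% in VC.4, and Tbx1 was at 3.43% in AP.2 and 3.37% in VC.2. The ratio of Lrig1 reads to Tbx1 reads was 0.682, 1.27, 0.681 and 1.29 across the VC libraries and 3.65, 3.32, 3.36 and 3.33 across the AP libraries. Separate groups are common for such ratios. They occurred for 6 of the 28 ratios between members (21.4%) and for 21.5% of the 63005925 ratios between any 2 of 11226 genes, those of the search for neighbours below that had reads in every library. No test was made of these shares and ratios, which were chosen after the values were seen, and the shares were not set against all genes.

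Some members shared their highest and lowest libraries, and others did not. VC.4 was the lowest VC library for Sox9, Lhx2, Krt15, Tbx1 and Foxc1 and the highest for Nfatc1 and Cd34. AP.3 was the highest AP library for Sox9, Lhx2, Krt15, Lrig1, Tbx1 and Foxc1, but the lowest for Nfatc1. By the root-mean-square difference of their mean-centred log2 profiles over the 8 libraries, the closest pair was Lhx2 with Tbx1 (0.27), followed by Sox9 with Foxc1 (0.31) and Nfatc1 with Cd34 (0.33). The most unlike pair was Lrig1 with Tbx1 (0.99).

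**Figure D2:**
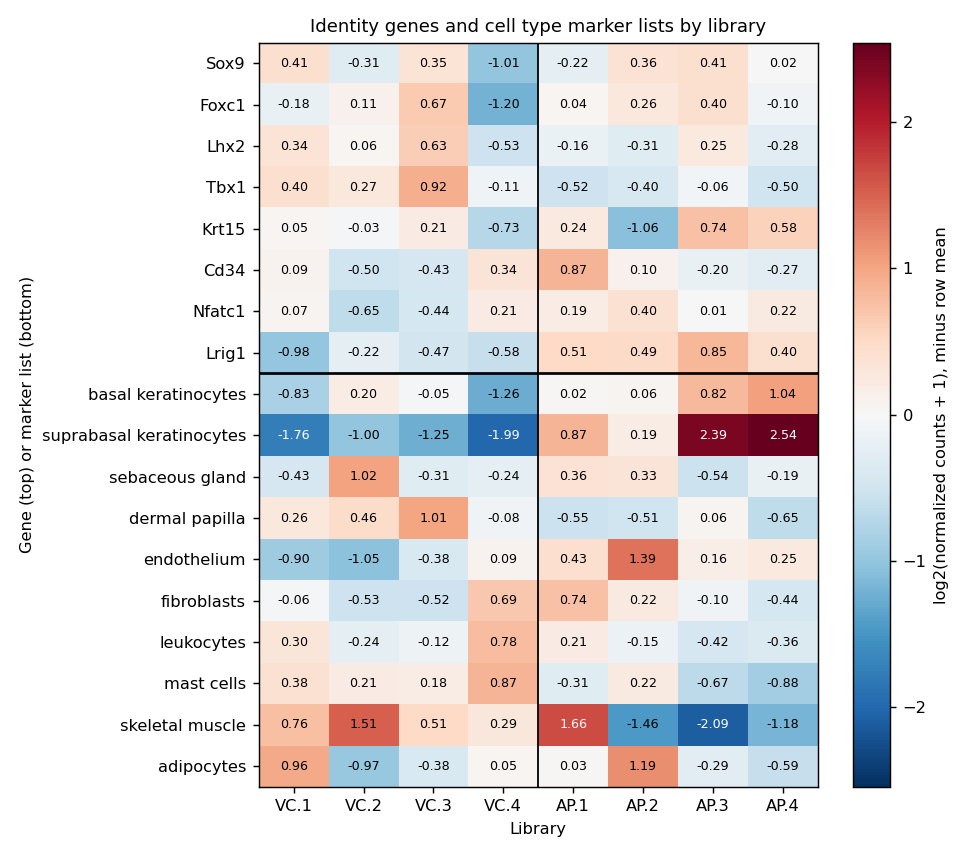
Mean-centred log2 values of the 8 identity genes (top) and of the 10 cell type marker lists (bottom, mean over the genes of a list) in each library, with red above and blue below the row mean. Lrig1 and the suprabasal keratinocyte list are above their row mean in all 4 AP libraries and below it in all 4 VC libraries, while Sox9, Foxc1, Lhx2 and Tbx1 share a low value in VC.4 relative to the other VC libraries.

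Among 11249 other genes with a mean of at least 50 normalized counts, the profile nearest to that of Lrig1 belonged to Dennd4c, at a root-mean-square difference of 0.15 over the 8 libraries, and then to Epg5 at 0.16. Nearest to Tbx1 were Plcxd1 at 0.13 and Safb2 at 0.15. Nearest to Sox9 were Smad7, an inhibitor of TGF-beta signalling, at 0.09 and Pom121 at 0.14. Cd34 was nearest to Arsi at 0.12 and to Dcn, a collagen-binding proteoglycan of fibroblasts, at 0.16. The nearest profiles were E4f1 and B4galt3 for Lhx2, both at 0.14, and Synj1 and Morc3 for Nfatc1, at 0.13 and 0.14. Krt15 had the least close neighbours, Ano9 at 0.26 and Camta1 at 0.27, and those of Foxc1 were Rnf43 at 0.18 and Ccnt1 at 0.19.

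Other genes of the same compartments were set beside the members. Of 14 other bulge genes tested, 2 were higher in AP skin at an adjusted p under 0.05 and 0 were lower, with 7 log2 fold changes above 0, 7 below 0 and a median of -0.01 (-0.18 to 0.08 with 1 library left out). At an unadjusted p under 0.05 in limma, 2 were higher and 3 were lower, and of the latter DESeq2 called 1 (Fgf18) and edgeR 0. The higher genes were both parts of the hemidesmosome, by which basal cells adhere to the basement membrane. Itga6 had 337, 723, 591 and 302 normalized counts across the VC libraries and 1129, 1468, 2244 and 2380.3 across the AP libraries. Every AP library was above every VC library, and the log2 fold change was 1.92 (SE 0.31, limma adjusted p = 0.00896). The study chose Itga6 for display on these samples, so its direction is not independent evidence. Col17a1 had 995, 2490.04, 2189 and 641 normalized counts across the VC libraries and 3556, 2857, 6233 and 6666 across the AP libraries, again without overlap. Its log2 fold change of 1.73 (SE 0.42) had a limma adjusted p of 0.0298, which became 0.0721, 0.0545, 0.0912 or 0.0825 when VC.1, VC.4, AP.3 or AP.4 was left out. The lower bulge marker Lgr5, a receptor for R-spondins, had 40.0 to 124 normalized counts in the VC libraries and 95.1 to 151 in the AP libraries, with a log2 fold change of 0.50 (SE 0.35, limma adjusted p = 0.352). Gli1, a target and effector of hedgehog signalling, had 289 to 741 in the VC libraries and 235 to 377 in the AP libraries, with a log2 fold change of -0.60 (SE 0.27, limma adjusted p = 0.164). Neither passed the test, and both had overlapping groups. Krt19 was at 0 in VC.2 and low in the other libraries.

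Other genes of the isthmus and junctional zone were set beside Lrig1, where 6.33% of all genes tested were higher and 4.0% were lower. All 5 of these genes had a log2 fold change above 0, with a median of 0.53 that was 0.31 without VC.1, 0.82 without VC.2 and 0.89 without VC.3. Of the 5, 1 passed the test, as with edgeR and DESeq2, and for the other 4 the groups overlapped. This was Plet1, a surface protein of the isthmus, with 67.3, 96.1, 49.2 and 61.9 normalized counts across the VC libraries and 109.5, 145, 179.9 and 164 across the AP libraries. Every AP library exceeded every VC library, with a log2 fold change of 1.13 (SE 0.27, limma adjusted p = 0.0270). Leaving out AP.2, AP.3 or AP.4 gave an adjusted p of 0.0682, 0.0974 or 0.0812. Lgr6, which marks stem cells of the isthmus, had 233, 103, 229 and 65.6 normalized counts across the VC libraries and 268, 191, 342 and 333 across the AP libraries. AP.2 fell inside the VC range, the other AP libraries were above it, and the gene did not pass the test (log2 fold change 0.99, SE 0.38, limma adjusted p = 0.110). The most abundant gene of the list was Krt79, a keratin of the infundibulum and sebaceous duct.

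**Figure D3:**
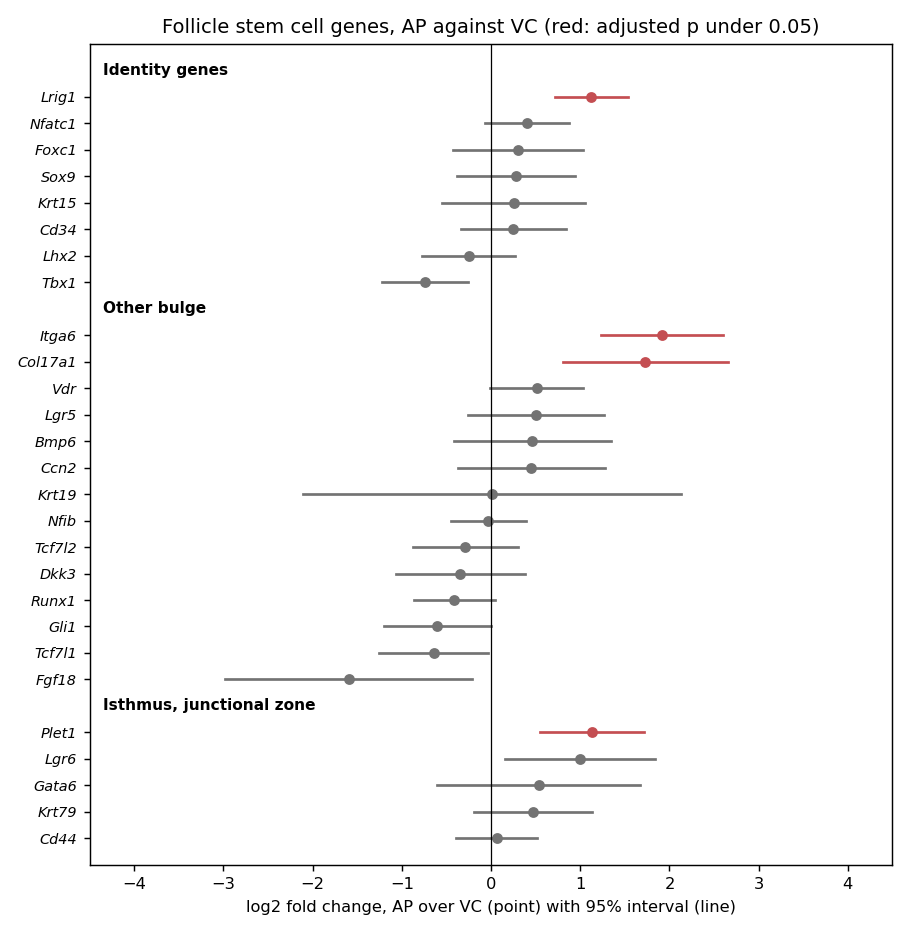
Log2 fold changes (AP over VC, limma, points) with 95% intervals (lines) for the 8 identity genes, 14 other bulge genes and 5 isthmus and junctional zone genes. Genes with an adjusted p under 0.05 (red) are Lrig1, Itga6, Col17a1 and Plet1, and the intervals of Tbx1, Gli1, Tcf7l1, Fgf18 and Lgr6 lie off 0 without passing the adjusted test.

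Genes of the hair germ, the growing matrix and dividing cells were counted in the same way, where 10.3% of all genes tested passed in either direction. At an unadjusted p under 0.05 in limma, 17% of all genes were higher and 13.3% were lower, and DESeq2 called 10.5% higher and 8.55% lower. Of 5 hair germ genes, 0 passed the test in either direction, with a median log2 fold change of -0.02 (-0.15 to 0.09 with 1 library left out). This count was also 0 at an unadjusted p under 0.05 in limma and with edgeR and DESeq2. Sox4, the most abundant of them, had 653 ± 52.3 (SD, n = 4) normalized counts in VC and 652 ± 141 (SD, n = 4) in AP skin. Of 9 anagen matrix genes tested, 1 was higher, 0 were lower, as with edgeR and DESeq2, and the median was -0.28. With 1 library left out this median ranged from -0.71 to -0.01. At an unadjusted p under 0.05 in limma, 3 were higher and 0 were lower. The higher gene was Tchh, which encodes trichohyalin of the inner root sheath and is also made by other keratinizing epithelia. It had 366, 265, 247 and 99.4 normalized counts across the VC libraries and 709, 4478, 4193 and 1223 across the AP libraries, so that all AP libraries were higher but differed among themselves several-fold (log2 fold change 3.18, SE 0.57, limma adjusted p = 0.0113). Shh, the hedgehog ligand of the growing matrix, had 429, 225, 522 and 76.9 normalized counts across the VC libraries and 112, 176, 221 and 115 across the AP libraries. The groups overlapped and it did not pass the test (log2 fold change -0.73, SE 0.50, limma adjusted p = 0.349). Of 10 proliferation genes, 0 passed the test, with 6 above 0, 4 below 0 and a median of 0.18, which was 0.00 without VC.4. At an unadjusted p under 0.05 in limma, 1 was higher and 2 were lower, and DESeq2 called Mcm5 higher and Birc5 lower, while edgeR called Birc5 alone. Mki67, the most abundant of them and a protein of cycling cells, had 1421 ± 465 (SD, n = 4) normalized counts in VC and 1333 ± 457 (SD, n = 4) in AP skin.

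Markers of other cell types of the skin were counted too. Suprabasal keratinocyte markers were present although the epidermis between the follicles had been removed, and 7 of 8 were higher in AP skin, with a median log2 fold change of 3.11. Their summed normalized counts were 5497, 11828, 8066 and 5248 across the VC libraries and 41157, 39191, 115713 and 163264 across the AP libraries. All AP libraries were above all VC libraries, AP.3 and AP.4 furthest. Krt10 was the most abundant gene of this list, and no marker of it was at 0. The study also picked Krt10 and Krt77 of this list from these libraries for display. Ivl, which its text does not name, was read by eye from the labels of a figure. Lor, the cornified envelope protein loricrin, passed the test as well (limma adjusted p = 0.0386), but it missed the threshold when any library other than AP.2 was left out, with an adjusted p of up to 0.111. Basal keratinocyte markers, most of which bulge cells share, were higher for 2 of 6 genes, and all 6 had a log2 fold change above 0, with a median of 0.98. Their sums were 23322, 75908, 44992 and 21368 across the VC libraries and 45548, 49138, 87422 and 130983 across the AP libraries, with Krt14 the most abundant gene and none at 0. VC.2 exceeded AP.1 and AP.2, so the groups overlapped. The called genes were the integrins Itgb4 (limma adjusted p = 0.0425) and Itga3 (limma adjusted p = 0.0499), and with 1 library left out their adjusted p reached 0.118 and 0.142, both without AP.3. DESeq2 called both and edgeR 0 of the 6. The part of these cells in the higher level of Lrig1, and of Itga6 and Col17a1, was not tested.

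Dermal papilla markers, from the mesenchymal cells that signal to follicle stem cells, were lower in AP skin for 2 of 7 genes and higher for 0, as with edgeR and DESeq2. All 7 log2 fold changes were below 0, those of Prom1 (-0.03) and Fgf7 (-0.09) only slightly. The median was -0.92, and it was -0.48 without VC.3. With total-count scaling it was -0.05, or -0.95 relative to the median of all genes, which that scaling moved by 0.84. Their summed normalized counts were 751, 844, 1421 and 579 across the VC libraries and 384, 404, 695 and 345 across the AP libraries. AP.3 was the highest AP library and lay above VC.4, as for Tbx1. Sox2, a factor of dermal papilla cells of some hair types, had 109, 90.1, 124 and 56.2 normalized counts across the VC libraries and 21.8, 18.3, 42.4 and 26.5 across the AP libraries. Every AP library was below every VC library, and Sox2 fell by 1.78 on the log2 scale (SE 0.36, limma adjusted p = 0.0174). Rspo3, a secreted activator of Wnt signalling, fell by 1.45 on the log2 scale (SE 0.32, limma adjusted p = 0.0212), also without overlap, and its adjusted p was 0.0583 without AP.2, 0.0616 without AP.3 and 0.0603 without AP.4. Under total-count scaling Sox2 and Rspo3 missed the threshold, at -1.83 and -1.48 relative to the median of all genes. Corin was the most abundant gene of the list, and none was at 0. The part of dermal papilla cells in the values of Tbx1 was not tested.

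Endothelial markers, whose cells also make Cd34, were higher for 2 of 7 genes (Pecam1 and Cdh5), with a median log2 fold change of 1.44. Of their log2 fold changes, 6 were above 0 and 1 was below, that of Egfl7 (-0.40, SE 0.24, limma adjusted p = 0.291). Emcn was at 0.60 with overlapping groups (limma adjusted p = 0.237). Of the 7 markers, 5 were higher with DESeq2 and at an unadjusted p under 0.05 in limma (Cdh5, Kdr, Pecam1, Tek and Tie1), and edgeR called 2. Of all genes tested, 10.5% were higher with DESeq2 and 17% at the unadjusted p. The endothelial markers were also summed per library. Their sums were 1191, 1037, 1540.2 and 1851 across the VC libraries and 2562, 5847, 2223 and 2362 across the AP libraries, with Pecam1 the most abundant gene and none at 0. All AP libraries were above all VC libraries, and AP.2 stood apart. Pecam1 passed the test without any 1 library, whereas the adjusted p of Cdh5 was 0.0847 without VC.1, 0.0651 without VC.2, 0.0880 without AP.2, 0.0725 without AP.3 and 0.0721 without AP.4. For fibroblasts 0 of 7 markers passed the test, and the sums were 120642, 81326, 82894 and 222688 across the VC libraries and 254001, 188854, 136041 and 97846 across the AP libraries, with Col1a1 the most abundant and none at 0. The median log2 fold change of the fibroblast markers was 0.41 (0.23 to 0.75 with 1 library left out). At an unadjusted p under 0.05 in limma, 1 fibroblast marker was higher and 1 was lower, and DESeq2 called 1 lower (Dpt) and edgeR 0. VC.4 and AP.1 held the highest sums of their groups, as they did for Cd34. The part of both cell types in the values of Cd34 was not tested. Of 5 mast cell markers tested, 2 were lower (Mcpt4 and Tpsb2), with a median of -1.02, and DESeq2 called Cma1 as well. Of all genes tested, 4.0% were lower in limma and 8.55% with DESeq2. Kit was at 0.05 with overlapping groups (limma adjusted p = 0.929), and Fcer1a was too low to be tested. Without 1 library the adjusted p of Mcpt4 reached 0.0912 and that of Tpsb2 0.131, both without AP.3. Of the sebaceous gland, leukocyte, skeletal muscle and adipocyte lists, 0 of 7, 0 of 7, 0 of 6 and 0 of 5 genes passed the test. Their median log2 fold changes were -0.20, -0.50, -1.65 and 0.23, and their most abundant genes were Scd1, Lyz2, Acta1 and Fabp4. With 1 library left out these medians ranged from -0.31 to 0.13, from -0.84 to -0.31, from -2.50 to -1.18 and from -0.27 to 0.57, so that the first and the last changed sign. At an unadjusted p under 0.05 in limma, 1 sebaceous gland marker was higher, 1 leukocyte marker was higher and 3 were lower, 4 skeletal muscle markers were lower and 1 adipocyte marker was higher. DESeq2 called Fasn higher and Adgre1 and Lyz2 lower among them, and edgeR called 0.

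Promoter sequences from RefSeq (GRCm38.p6, 250 bases before to 50 bases after a start) were matched by symbol for 5 of the 8 members, namely Cd34, Lhx2, Lrig1, Foxc1 and Tbx1. Short motifs of factor families to which members belong, and of TCF factors, were searched on both strands. The 5 members have 7 windows, since Lhx2 and Tbx1 have a pair each. TTTCC, the core of NFAT sites, was in 4 of the 7 windows (Cd34, Foxc1 and both of Lhx2), against 61.3% of 32851 promoter windows of the same length. AGGTGT, bound by T-box factors, was in 2 of the 7 (Cd34 and the outer one of Tbx1), against 13.7% of all windows. AACAAAG for SOX factors, GTAAACA for forkhead factors, TAATTA for LIM-homeodomain factors and CTTTGAT for TCF factors were in 0 of the 7, against 5.85%, 3.65%, 5.29% and 3.73% of all windows. A match is a description of these letters only. Shown are the windows of Lrig1, the member that rose, and of Tbx1 and Lhx2, the pair with the closest profiles, each at the outermost start of the gene. They lie at chr6:94700096-94700395 (minus strand), chr16:18590622-18590921 (minus strand) and chr2:38339031-38339330 (plus strand). Capitals mark AGGTGT in Tbx1 and the reverse complement of TTTCC in Lhx2, and none of the 6 motifs is in the Lrig1 window.
Lrig1 promoter: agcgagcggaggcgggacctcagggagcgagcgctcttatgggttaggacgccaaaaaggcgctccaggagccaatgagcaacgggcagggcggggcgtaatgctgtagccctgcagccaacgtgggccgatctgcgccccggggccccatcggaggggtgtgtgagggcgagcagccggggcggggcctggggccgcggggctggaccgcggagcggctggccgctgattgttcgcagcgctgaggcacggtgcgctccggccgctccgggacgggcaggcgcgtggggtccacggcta
Tbx1 promoter: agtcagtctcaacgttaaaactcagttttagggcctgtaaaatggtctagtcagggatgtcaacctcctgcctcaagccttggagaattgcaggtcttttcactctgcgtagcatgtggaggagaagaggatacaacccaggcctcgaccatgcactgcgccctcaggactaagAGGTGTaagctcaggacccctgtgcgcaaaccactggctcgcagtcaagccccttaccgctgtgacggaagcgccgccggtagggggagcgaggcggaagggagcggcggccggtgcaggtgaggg
Lhx2 promoter: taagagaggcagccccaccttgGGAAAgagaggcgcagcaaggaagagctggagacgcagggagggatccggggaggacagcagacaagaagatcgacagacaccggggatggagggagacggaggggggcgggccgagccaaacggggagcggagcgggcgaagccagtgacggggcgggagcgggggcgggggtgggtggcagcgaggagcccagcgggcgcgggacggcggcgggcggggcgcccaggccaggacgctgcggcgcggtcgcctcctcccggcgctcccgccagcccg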

How the data were processed

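RNA of dermis with hair follicles was sequenced for 4 VC and 4 AP mice. According to the study's methods, the authors used STAR for alignment to mm10, featureCounts for reads per gene and DESeq2 for the comparison, while the submitters' processing notes name HTSeq. Their versions are not given in the sources used here. The deposited values are a signal per gene and library, namely read counts divided by a size factor. All 150160 values were whole multiples of 1 step per library (tolerance 0.01 reads), so reads were recovered. Columns of the authors' own comparison (mean, fold change, error, statistic and p-values) were not used.

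Genes had to reach 3 normalized counts in 4 or more of the 8 libraries, and the 15964 that did were tested by limma 3.58.1 in R 4.3.3, with an intensity trend, on log2(value + 1), with Benjamini-Hochberg adjustment over all of them. Neither members nor lists were tested as sets. The members and the 15 gene lists were chosen with earlier results of these data known, and within-library shares and ratios were added after the data were seen, as was the mention of uncalled list genes such as Lgr5, Gli1, Lgr6 and Shh. Single values were compared by an exact permutation test over 70 assignments (Python 3.11.15, SciPy 1.17.1). The alternatives were edgeR 4.0.16, DESeq2 1.42.0 and limma-voom with and without sample weights on recovered reads, other scalings, pseudocounts of 0.5 and 5, other filters, reads drawn down to 3080758 per library, removal of a trend on exon length, limma without the intensity trend and each library left out in turn. Exon lengths and coordinates are from GENCODE M21, which held all 18770 identifiers. The model fits were also run on simulated counts, without mitochondrial genes and with the same spread set for every gene. That run does not cover the differences in mitochondrial share or the exon length trend of these libraries. Averaged over genes, chi-square per degree of freedom between replicates was 14.7 to 74.2. The libraries thus differed by more than counting error, and no library was a repeat of another. Genes with many reads weigh most in this average, so it does not describe counting error of single genes with few reads.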

Additional observations from a re-analysis of the deposited data

Results flagged for a closer look

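Of 48 groups of 4 libraries examined for the members and the marker lists, 4 held a library far from the other 3, in that its gap to the nearest of them took up a larger part of the range of the group than Dixon's 95% limit for 4 values allows. Chance flags about 1 in 20 groups. None of the 4 was a member of the identity genes. The summed sebaceous gland markers reached 48026 normalized counts in VC.2, where the other VC libraries had 16668 to 20906. The summed endothelial markers reached 5847 in AP.2, against 2223 to 2562 in the other AP libraries. The summed skeletal muscle markers reached 63650.4 in AP.1, against 4684 to 10000.5 in the other AP libraries. For the dermal papilla markers the highest AP sum was 695 in AP.3, against 345 to 404 in the others. AP.3 also held the highest AP value of Tbx1 and of 5 other members, and AP.2 the lowest value of Krt15. The part of these cells in the values of the members was not tested.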

How the results depend on the processing

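Over 22 alternative fits, Lrig1 kept its direction and an adjusted p under 0.05 in each, with log2 fold changes from 0.99 to 1.995. With total-count scaling, which moved the median of all genes by 0.84, Lhx2 turned to 0.62 and Tbx1 to 0.13. Without VC.4 Sox9 turned to -0.01 and Foxc1 to -0.05, and with 1 library left out at a time Sox9 ranged from -0.0085 to 0.47 and Foxc1 from -0.047 to 0.58. Lhx2 then ranged from -0.47 to -0.08, Nfatc1 from 0.26 to 0.54, Cd34 from 0.00 to 0.40, Krt15 from 0.05 to 0.65 and Tbx1 from -0.90 to -0.56. The cause was not tested. Cd34, Krt15 and Nfatc1 stayed above 0 in every alternative. Instead of 1 member, 2 passed the threshold with edgeR, DESeq2, limma-voom with and without weights, upper-quartile factors, a pseudocount of 5 and the study's cutoffs applied to limma, and 6 with total-count scaling. Of all genes, 10.3% passed in the main fit, 10.7% with edgeR, 19.1% with DESeq2, 9.01% with limma-voom and 11.2% with its weights, 11.1% with upper-quartile factors, 11.6% with a pseudocount of 5, 13.6% by the fixed p and fold cutoffs and 54.1% with total-count scaling. With 1 library left out, 1 to 2 members passed, where 1.95% (without AP.3) to 11.9% (without AP.1) of all genes did. The median of the members was 1.14 with total-count scaling, 0.16 with the exon length trend removed and 0.021 to 0.35 with 1 library left out. The number of genes higher in AP skin was 1677 with DESeq2, 8670 with total-count scaling, 663 with the exon length trend removed, 376 without the intensity trend and 211 to 1061 with 1 library left out. The number lower was 1362 with DESeq2, 65 with total-count scaling, 216 without the intensity trend and 96 to 812 with 1 library left out. Across tested genes with a mean of at least 50, the log2 fold change had a Spearman rho of 0.34 with exon length (11245 genes, which are not independent replicates). Of all results for 27 named genes, 509 kept direction and side of the threshold, 12 newly passed it, 69 no longer did and 4 changed sign. No paired analysis was possible because the labels give the groups no shared numbers. With reads drawn down to 3080758 per library, the log2 fold change of Foxc1 was 0.24 (SE 0.34).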
